A study of Homo sapiens with 11 samples.

Results

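The 10 genes described here are USP3, MAP3K20, ERGIC1, KBTBD11, CAMK2A, PRKAG2, PTGIS, STK32B, ENTPD6 and FGD5, out of 20037 protein-coding genes in the RefSeq table for GRCh38. They were picked because a binding site of the transcription factor MYRF in or near each had a much shorter acetylated stretch in MYRF knockout cells, so that shortening describes the choice and is not a finding. Each locus was taken as the gene span plus 50 kb on each side, and every peak whose summit fell inside was assigned to it. None of the 10 loci overlapped, and together they held 17 of the 2793 MYRF sites of the CFPAC1 line.

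The study mapped protein binding and histone acetylation by chromatin immunoprecipitation and sequencing (ChIP-seq) in CFPAC1 and HPAF2, human cell lines from pancreatic ductal adenocarcinoma. The H3K27ac comparison set a MYRFKO clone of CFPAC1, which carried Cas9 and a guide against MYRF from a lentiviral vector, against a control clone isolated after infection with the same kind of vector. FOS was mapped in the control clone, and MYRF was mapped with an antibody of the submitters' own making in the original CFPAC1 and HPAF2 lines, the first grown in IMDM and the second in RPMI. Each of these 5 groups had 2 libraries. The knockout and the control are 1 clone each, so clone and MYRF state cannot be told apart, and the labels do not say that replicates were separate cultures.

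The lists held 107586 and 110498 H3K27ac peaks in MYRFKO cells and 116466 and 109352 in control cells, covering 87.9 and 92.9 Mb against 101.0 and 95.2 Mb. They carry no read counts, so the depth of every library is unknown, and a missing peak means only that the authors' caller listed none. Peaks do not show MYRF protein or RNA, so the knockout itself could not be checked here. H3K27ac within 1 kb of a gene end marked 7 of 7 ductal epithelial genes in both MYRFKO libraries and in both control libraries. Of 10 genes of other cell types, 3 were marked in both libraries of each clone. CD3E and COL1A1 were among them in both clones, with PECAM1 as the third in MYRFKO cells and CPA1 in control cells.

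MYRF starts out anchored in the membrane of the endoplasmic reticulum, where it cuts itself and frees an amino-terminal part that enters the nucleus and binds DNA. Its classic role is to activate myelin genes in oligodendrocytes. H3K27ac, acetylation of lysine 27 of histone H3, is found at active promoters and enhancers, and FOS pairs with JUN proteins to form AP-1, which binds many enhancers of epithelial cells.

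At 11 of the 17 MYRF sites, H3K27ac was much shorter in MYRFKO than in control cells. The measure was the number of bases covered by H3K27ac peaks in a window of 2000 bp centred on the MYRF summit, and a site was called much shorter where both MYRFKO values lay under both control values and their mean was at most 0.5 times the control mean. The share was 64.7% (95% Wilson interval 41.3 to 82.7, over sites only), against 3.22% of all CFPAC1 MYRF sites, and since the genes were picked on this contrast nothing is read from it. At 4 of the 11 sites neither MYRFKO library had any H3K27ac in the window, at 5 sites 1 of them had none, and at 2 sites both still had some. The median ratio of MYRFKO to control coverage was 0.22 over the 17 sites and 0.993 over the 2472 sites of the whole list with any control coverage. Nearest to the limit of 0.5 were the ENTPD6 site inside it, with a ratio of 0.463, and, outside it, the first PTGIS site, with 0.529 and values that overlapped, and the second CAMK2A site, with 0.565. Of the 17 sites 13 were lower in both MYRFKO libraries than in both control libraries, a state found at 18.1% of all sites, and 1 was higher, a state found at 6.48%.

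**Figure D1:**
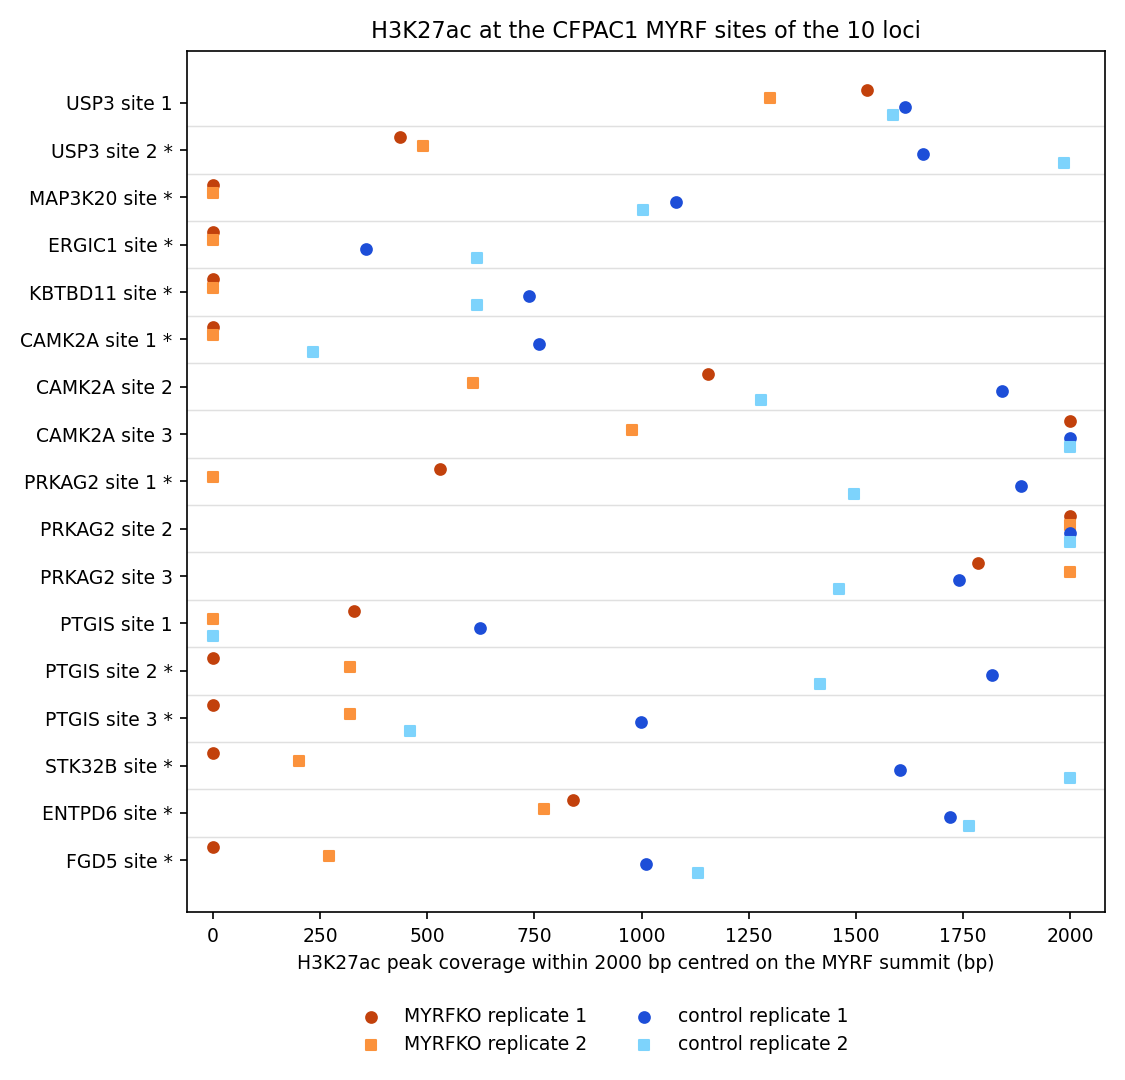
H3K27ac peak coverage in bp (x axis) within 2000 bp centred on the summit of each of the 17 CFPAC1 MYRF sites of the 10 loci (rows, numbered by position within a locus), with 1 point per library. Asterisks mark the 11 sites called much shorter, where MYRFKO points reach at most 840 bp and control points run between 233 and 2000 bp.

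The control acetylation at many of these sites was weak, in control replicate 2 or in both control libraries. With H3K27ac peaks of −log10 q of at least 10 alone, 4 of the 17 sites were much shorter, or 23.5% against 4.26% of all sites. Those 4 were the second USP3 site, the second CAMK2A site, the STK32B site and the ENTPD6 site. The call ended at 8 sites, those of MAP3K20, ERGIC1, KBTBD11 and FGD5, the first of CAMK2A, the first of PRKAG2 and the second of PTGIS and the third of PTGIS. At these 8, control replicate 2 had no peak of that strength in the window. Control replicate 1 still had 847 bp at the MAP3K20 site, 1885 bp at the first PRKAG2 site and 1816 bp at the second PTGIS site. It had none at the others, so the control libraries differed at those named.

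STK32B, MAP3K20 and CAMK2A encode protein kinases and PRKAG2 a kinase subunit. STK32B, a serine/threonine kinase with little known function (chr4:5019386-5500989), had 1 MYRF site at chr4:5134576-5134886, inside the gene and 83.2 kb downstream of its RefSeq start. H3K27ac covered 0 and 200 bp of the window in MYRFKO libraries and 1602 and 2000 bp in control libraries, a ratio of 0.0555. The MYRFKO values were near none and the control values at or near the full window, with no overlap. MYRF fold enrichment there was modest, 5.05 and 7.09 in the CFPAC1 replicates, at percentiles 49.3 and 75.6 of their lists, and HPAF2 MYRF and FOS had no peak on it. Around the site, 1 merged acetylated region of 4887 bp (chr4:5133222-5138108) held 200 bp of peaks in each MYRFKO library and 2961 and 4887 bp in the control libraries.

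The shorter acetylation in STK32B was not restricted to the MYRF site. Over the whole locus, H3K27ac covered 2448 and 5162 bp in MYRFKO libraries and 13163 and 21843 bp in control libraries, a ratio of 0.217. More than 5 kb from the MYRF summit, 2248 and 4473 bp were covered in MYRFKO libraries and 8881 and 15517 bp in control libraries, a ratio of 0.275, the lowest of the 10 loci. Of the 10 regions acetylated in both control libraries, 2 had no peak in either MYRFKO library, at chr4:5118113-5119794, which holds a FOS site, and at chr4:5162895-5163845. Another FOS-bound region, chr4:5163895-5167927, kept 1758 and 2340 bp in MYRFKO libraries, against 2854 and 4033 bp in control libraries. At the gene start itself, H3K27ac covered 0 and 762 bp of a 2000 bp window in MYRFKO libraries and 1595 and 1823 bp in control libraries, again without overlap.

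MAP3K20, a stress-activated kinase that responds to stalled ribosomes and acts on MAP kinase cascades (chr2:173075517-173268015), had 1 MYRF site at chr2:173109151-173109603, inside the gene and 33.5 kb downstream of its start. Both MYRFKO libraries had 0 bp of H3K27ac in the window, against 1079 and 1003 bp in the control libraries. The nearest MYRFKO peaks lay 30681 and 31106 bp from the summit. Apart from the peaks at the site, control libraries had none within 10 kb of it either. MYRF fold enrichment was 7.28 and 9.05, and neither HPAF2 MYRF nor FOS was found on it. The start of MAP3K20 was acetylated in all libraries, with peaks of fold 18.1 and 13.3 in MYRFKO cells and 14.5 and 18.7 in control cells. Away from the site, the locus had 15008 and 9571 bp of H3K27ac in MYRFKO libraries and 11312 and 8547 bp in control libraries, with overlapping values.

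The promoters of STK32B, MAP3K20 and FGD5 are shown because they stand for different states of acetylation at the gene starts, namely lower in MYRFKO cells (STK32B), present in all 4 libraries (MAP3K20) and listed in none (FGD5). They are RefSeq sequences of GRCh38.p14, plus strand, from 250 bases before to 50 after the start, at chr4:5051230-5051529, chr2:173075596-173075895 and chr3:14818712-14819011. Capitals mark CG pairs, which are dense in the promoters of many broadly expressed genes.
STK32B: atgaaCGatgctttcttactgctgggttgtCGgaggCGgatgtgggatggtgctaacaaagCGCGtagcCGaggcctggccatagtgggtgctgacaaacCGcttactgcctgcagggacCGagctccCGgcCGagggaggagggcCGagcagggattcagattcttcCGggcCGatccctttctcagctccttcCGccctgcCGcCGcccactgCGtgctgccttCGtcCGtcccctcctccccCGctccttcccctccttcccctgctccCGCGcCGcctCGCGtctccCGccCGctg
MAP3K20: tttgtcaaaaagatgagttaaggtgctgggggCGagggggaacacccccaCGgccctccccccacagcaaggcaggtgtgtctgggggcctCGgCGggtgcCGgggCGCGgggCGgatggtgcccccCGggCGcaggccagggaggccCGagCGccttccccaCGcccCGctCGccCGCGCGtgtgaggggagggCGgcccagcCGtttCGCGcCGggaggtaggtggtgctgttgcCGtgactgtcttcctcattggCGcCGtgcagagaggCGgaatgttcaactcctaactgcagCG
FGD5: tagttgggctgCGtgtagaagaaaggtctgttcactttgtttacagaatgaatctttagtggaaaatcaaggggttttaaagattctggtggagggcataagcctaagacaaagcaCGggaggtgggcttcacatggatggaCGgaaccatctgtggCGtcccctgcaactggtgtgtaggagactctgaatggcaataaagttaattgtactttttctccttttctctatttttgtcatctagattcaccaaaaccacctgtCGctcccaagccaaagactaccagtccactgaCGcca
STK32B had 27 CG pairs and MAP3K20 had 28, against a median of 21 over protein-coding promoters, and FGD5 had 6. The promoter table held 12 entries for 7 of the 10 genes. The letters CTGGCAC and CTGGTAC, searched on both strands as MYRF-type motifs, were in 0 of the 12 entries and in 7.04% of 22199 protein-coding promoters. The AP-1 motifs TGACTCA and TGAGTCA, which are each other's reverse complement, were likewise in 0 of the 12 and in 4.01% of all.

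CAMK2A, the alpha subunit of calcium/calmodulin-dependent kinase II and abundant in neurons (chr5:150219491-150290130, minus strand), had 3 MYRF sites. The first, chr5:150261195-150261674, lay inside the gene, 28.3 kb downstream of its start, and had 0 and 0 bp of H3K27ac in MYRFKO libraries against 761 and 233 bp in control libraries. The other 2, numbered second and last by position, at chr5:150316992-150317746 and chr5:150320008-150320705, lay outside any gene, 27.7 and 30.4 kb upstream of the start and nearer to ARSI, which encodes a sulfatase. The second carried 1154 and 607 bp in MYRFKO libraries and 1840 and 1278 bp in control libraries, and without MYRFKO replicate 1 or without control replicate 2 it too was called much shorter. The last carried 2000 and 977 bp in MYRFKO libraries and 2000 and 2000 bp in control libraries, so its values met at the full window, and without MYRFKO replicate 1 it was called much shorter as well.

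All 3 CAMK2A sites were bound by MYRF in both lines and by FOS. The second was the strongest MYRF site of the 10 loci in CFPAC1, with fold 37.3 and 35.7, and also had FOS at fold 24.9 and 28.9, the highest FOS values on any of the 17 sites. Both upstream sites fell in 1 merged region, chr5:150316606-150322292, with 4516 and 2552 bp of H3K27ac in MYRFKO libraries and 5602 and 5141 bp in control libraries. No H3K27ac peak was listed within 1 kb of the CAMK2A start in any of the 4 libraries. The locus had 1288 and 1098 bp of H3K27ac more than 5 kb from MYRF summits in MYRFKO libraries and 902 and 254 bp in control libraries, a ratio of 2.06. This includes a region present in both MYRFKO libraries and neither control library at chr5:150208940-150209489, inside the transporter gene SLC6A7.

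PRKAG2, a regulatory gamma subunit of the energy sensor AMP-activated protein kinase (chr7:151556127-151877115, minus strand), also had 3 sites. The first, chr7:151552460-151552765, lay 3449 bp beyond the 3′ end of the gene, where H3K27ac covered 530 and 0 bp in MYRFKO libraries and 1885 and 1496 bp in control libraries, a ratio of 0.157. The second, chr7:151687594-151688037, was fully covered with 2000 bp in all 4 libraries. The third, chr7:151745133-151745532, had 1785 and 2000 bp in MYRFKO libraries and 1740 and 1461 bp in control libraries, and was the single site of the 17 with higher values in MYRFKO cells. The site with short H3K27ac was thus not the strongest, with MYRF fold 4.52 and 5.15 against 14.5 and 15.4 at the second site and 4.02 and 3.61 at the third. FOS bound both of the others and not the first.

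PRKAG2 also differed away from its MYRF sites. More than 5 kb from MYRF summits, H3K27ac covered 34411 and 30771 bp in MYRFKO libraries and 40023 and 40291 bp in control libraries, a ratio of 0.812 without overlap. A region at chr7:151623375-151627445 with neither a MYRF nor a FOS site had 2943 and 1342 bp in MYRFKO libraries and 3701 and 3893 bp in control libraries. The inner starts at positions 151632233, 151633111 and 151736263 were acetylated in all 4 libraries, and the inner start at 151814859 in none. The outermost start at 151877115 had a peak of 237 bp in MYRFKO replicate 2 alone.

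ERGIC1, PTGIS and ENTPD6 encode proteins of the endoplasmic reticulum or the Golgi. ERGIC1, a membrane protein that cycles between the endoplasmic reticulum and the Golgi (chr5:172834251-172952683), had 1 site at chr5:172931125-172931746, inside the gene. H3K27ac covered 0 and 0 bp there in MYRFKO libraries and 358 and 617 bp in control libraries. MYRF bound it at fold 14.5 and 13.6 in CFPAC1 and at 17.7 and 18.3 in HPAF2, and FOS was listed in replicate 2 alone, at fold 3.9. The rest of the locus had 24626 and 20172 bp in MYRFKO libraries and 22257 and 20231 bp in control libraries, with overlapping values, and the lower end of the gene span was acetylated in all 4. A separate region at chr5:172985239-172985580 lay inside the proton pump gene ATP6V0E1, with its midpoint 54012 bp from the MYRF summit. It had no peak in MYRFKO libraries and peaks of 342 and 280 bp in control libraries. A region at chr5:172808675-172809348 showed the reverse, with 598 and 418 bp in MYRFKO libraries and none in control libraries.

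PTGIS, the prostacyclin synthase, an enzyme of the endoplasmic reticulum membrane (chr20:49503874-49568137), had 3 MYRF sites outside any gene, beyond the upper end of its span. The first, chr20:49584723-49585136, had 329 and 0 bp of H3K27ac in MYRFKO libraries and 622 and 0 bp in control libraries, which overlap, and it was called much shorter without control replicate 2. The second, chr20:49594175-49595086, had 0 and 319 bp in MYRFKO libraries and 1816 and 1417 bp in control libraries, a ratio of 0.0987. The third, chr20:49604464-49604810, had 0 and 321 bp in MYRFKO libraries and 999 and 461 bp in control libraries, and lay nearer to B4GALT5, a galactosyltransferase gene, at 28306 bp from its end. The second site was the strongest, with MYRF fold 19.6 and 19.3 in CFPAC1 and 33.2 and 36.2 in HPAF2, whereas the third had 3.61 and 3.91 in CFPAC1. FOS lay on none of them.

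The nearest FOS site, chr20:49596085-49596584, lay 1601 bp from the second PTGIS summit and had 0 and 256 bp of H3K27ac in MYRFKO libraries, against 1231 and 458 bp in control libraries. At the upper end of the PTGIS span, a small region at chr20:49567842-49568110 had no peak in MYRFKO libraries and peaks of 261 and 239 bp in control libraries. Over the whole PTGIS locus, 3612 and 3840 bp were covered in MYRFKO libraries and 9486 and 4297 bp in control libraries, which thus differed widely between themselves.

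ENTPD6, a nucleotide-hydrolysing enzyme of the Golgi that is also secreted (chr20:25195712-25228075), had 1 site 17.5 kb upstream of its start at chr20:25178000-25178290. H3K27ac covered 840 and 772 bp in MYRFKO libraries and 1718 and 1763 bp in control libraries. All values were well above none, and the groups did not overlap. MYRF fold was 7.03 and 7.03 in CFPAC1 and 7.79 and 7.68 in HPAF2. No FOS peak touched the site, but a strong one of fold 16.8 and 17.3 at chr20:25178601-25179687 had its summit 835 bp away, where H3K27ac covered 780 and 608 bp in MYRFKO libraries and 1589 and 1509 bp in control libraries. The rest of this densely acetylated locus had 33644 and 35756 bp in MYRFKO libraries and 31960 and 33419 bp in control libraries, without overlap. The start had peaks of fold 20.5 and 16.6 in MYRFKO cells and 16.4 and 14.3 in control cells.

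USP3 and KBTBD11 encode proteins of the ubiquitin system. USP3, an enzyme that removes ubiquitin from histones (chr15:63504593-63594633), had a site inside the gene at chr15:63553339-63554117, where H3K27ac covered 436 and 489 bp in MYRFKO libraries and 1656 and 1985 bp in control libraries, a ratio of 0.254. This was among the strongest MYRF sites of CFPAC1, with fold 26.8 and 26.3 at percentiles 98.6 and 98.5 of their lists. In HPAF2 it had 5.37 and 8.18, at percentiles 50.9 and 80.1. FOS was listed on it in replicate 2 alone, at fold 3.49. The acetylation that remained in MYRFKO cells lay to 1 side of the summit, 176 and 157 bp from it, while control peaks covered the summit. A weaker site 43.7 kb upstream, chr15:63460717-63461053, had 1526 and 1299 bp in MYRFKO libraries and 1614 and 1586 bp in control libraries, a small difference without overlap. The USP3 start was acetylated throughout, with fold 19.0 and 14.6 in MYRFKO cells and 14.2 and 18.1 in control cells.

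KBTBD11, a Kelch and BTB domain protein of the kind that brings substrates to cullin ubiquitin ligases (chr8:1973677-2006936), had 1 site at chr8:1994053-1994704, inside the gene. H3K27ac covered 0 and 0 bp in MYRFKO libraries and 737 and 617 bp in control libraries. MYRF fold was 30.1 and 28.2 in CFPAC1 and 58.3 and 64.0 in HPAF2, at percentiles 99.8 and 99.9 of the HPAF2 lists, the highest of the 17 sites in that line, and FOS had 7.19 and 8.25. HPAF2 had another 4 MYRF sites in the locus that were not called in CFPAC1. A region at chr8:1973233-1973629 had its midpoint 246 bp from the lower end of the gene span. It held peaks of 397 and 311 bp in MYRFKO libraries and none in control libraries. The locus as a whole was sparsely acetylated, with 1453 and 1578 bp in MYRFKO libraries and 2210 and 2863 bp in control libraries.

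FGD5, an exchange factor for the small GTPase CDC42 known from endothelial cells (chr3:14810688-14934571), had 1 site at chr3:14885394-14885715, inside the gene and 66.6 kb downstream of its start. H3K27ac covered 0 and 270 bp in MYRFKO libraries and 1010 and 1131 bp in control libraries, a ratio of 0.126. MYRF bound at fold 13.6 and 13.5 in CFPAC1 and not in HPAF2. The locus was the 1 of the 10 with no FOS peak in either FOS library. A neighbouring region at chr3:14884194-14884820 had no peak in MYRFKO libraries and peaks of 520 and 531 bp in control libraries. No H3K27ac peak was listed within 1 kb of its start in any library.

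**Figure D2:**
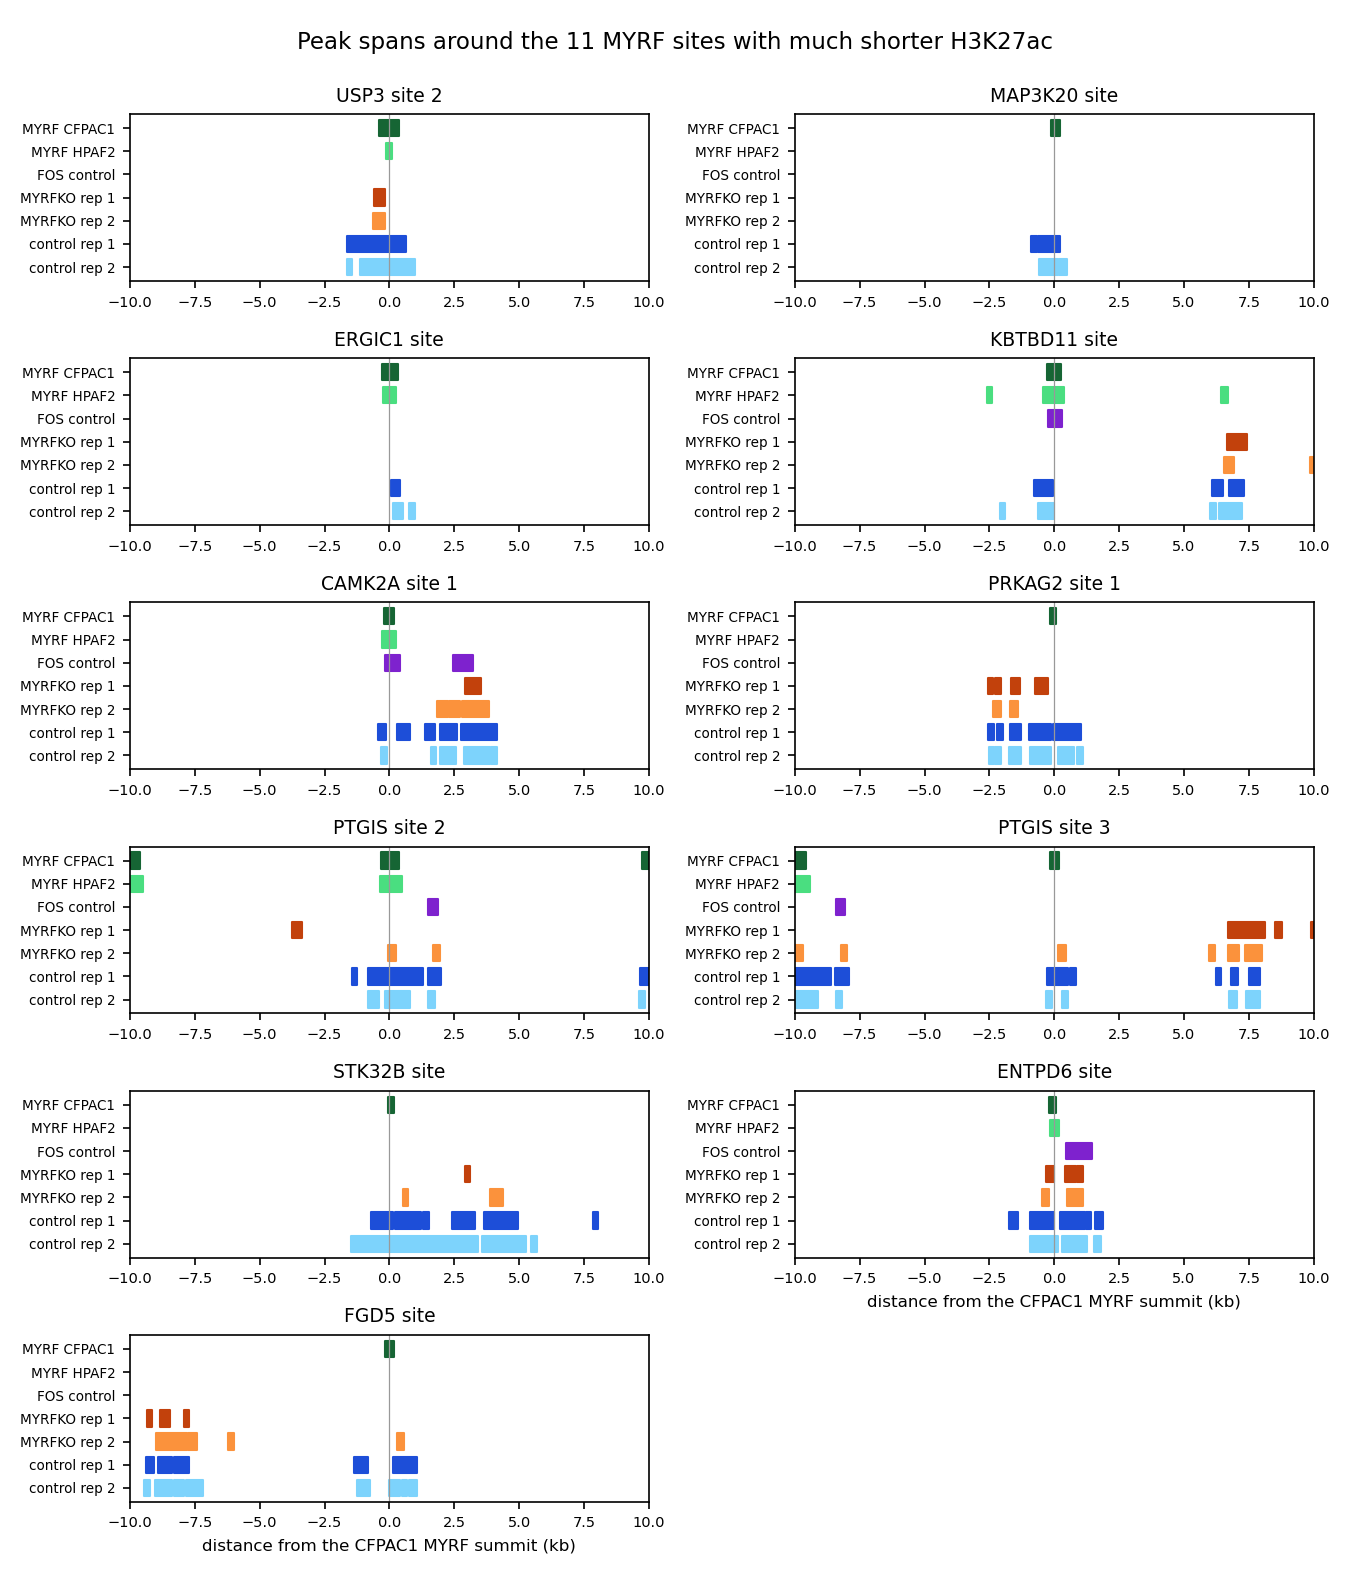
Peak spans within 10 kb of the CFPAC1 MYRF summit (x axis, distance in kb along the plus strand) at the 11 sites called much shorter. Rows show replicate 1 peaks for MYRF in CFPAC1, MYRF in HPAF2 and FOS, and the H3K27ac peaks of each library. MYRFKO rows are empty at the summit of every panel except the second PTGIS site, where replicate 2 has a peak.

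The position of the acetylation was followed around the summits of the 11 sites, whose windows served to pick the genes. Over these sites, an H3K27ac peak covered the MYRF summit at 0.0 and 9.09% of sites in MYRFKO libraries and at 63.6 and 54.5% in control libraries. Over all 2793 sites these shares were 55.2 and 59.6% in MYRFKO libraries and 62.3 and 58.7% in control libraries, with a dip at the summit in each library. The single summit covered in MYRFKO cells was that of the second PTGIS site, in replicate 2.

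**Figure D3:**
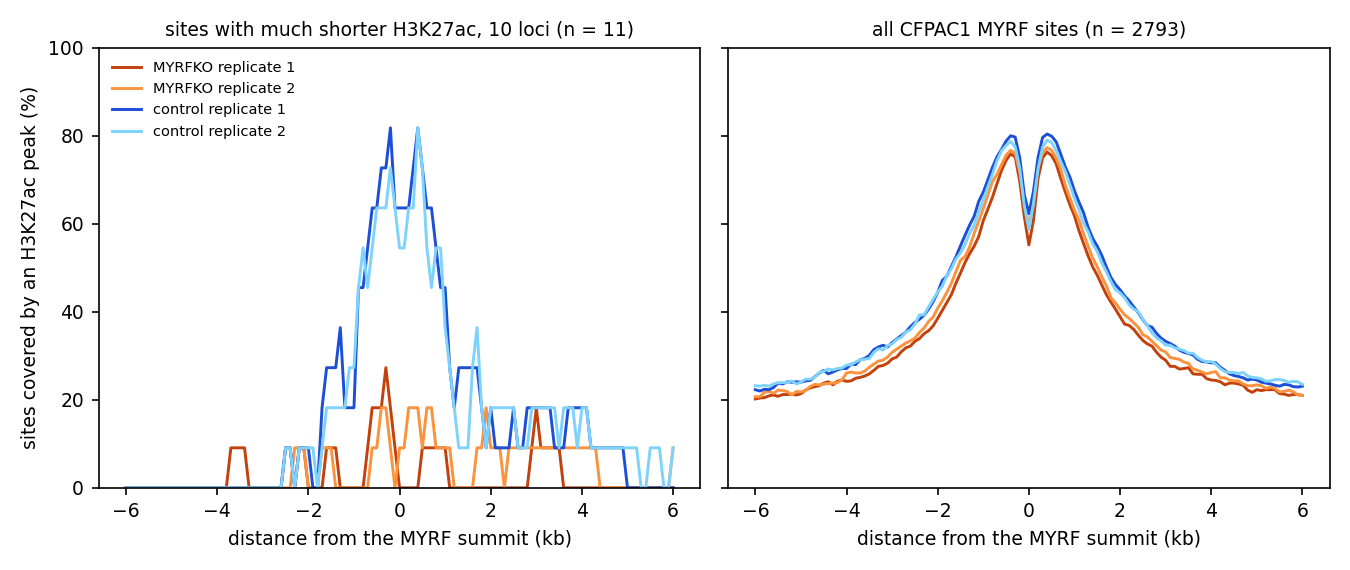
Share of sites in percent covered by an H3K27ac peak (y axis) by distance from the MYRF summit in kb (x axis), for the 11 much shorter sites (left) and all 2793 CFPAC1 MYRF sites (right), with 1 line per library. The MYRFKO lines on the left reach at most 27.3% and the control lines 81.8%, and the 4 lines on the right run close together.

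MYRF binding itself was not used to pick the genes, apart from the presence of a site. CFPAC1 MYRF fold enrichment had medians of 12.0 and 9.05 in the replicates over the 17 sites and of 6.09 and 5.94 over all sites, and the fold at single sites ran between 3.61 and 37.3 in replicate 1. HPAF2 MYRF was present at 10 of the 17 sites (58.8%, 36.0 to 78.4), against 46.0% of all CFPAC1 sites. FOS sites of both libraries overlapped 6 of the 17 sites (35.3%, 17.3 to 58.7), against 64.9% of all CFPAC1 sites. Much shorter H3K27ac was found at 2 of the 6 sites with FOS and at 9 of the 11 without, against 2.21% and 5.1% of all sites with and without FOS. That split uses the H3K27ac values on which the genes were picked, so nothing is read from it. The sites with FOS came from 3 genes, CAMK2A, PRKAG2 and KBTBD11, so they are not separate draws. MYRF and FOS were mapped in different cells, the original line and the control clone, and FOS was not mapped in MYRFKO cells.

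**Figure D4:**
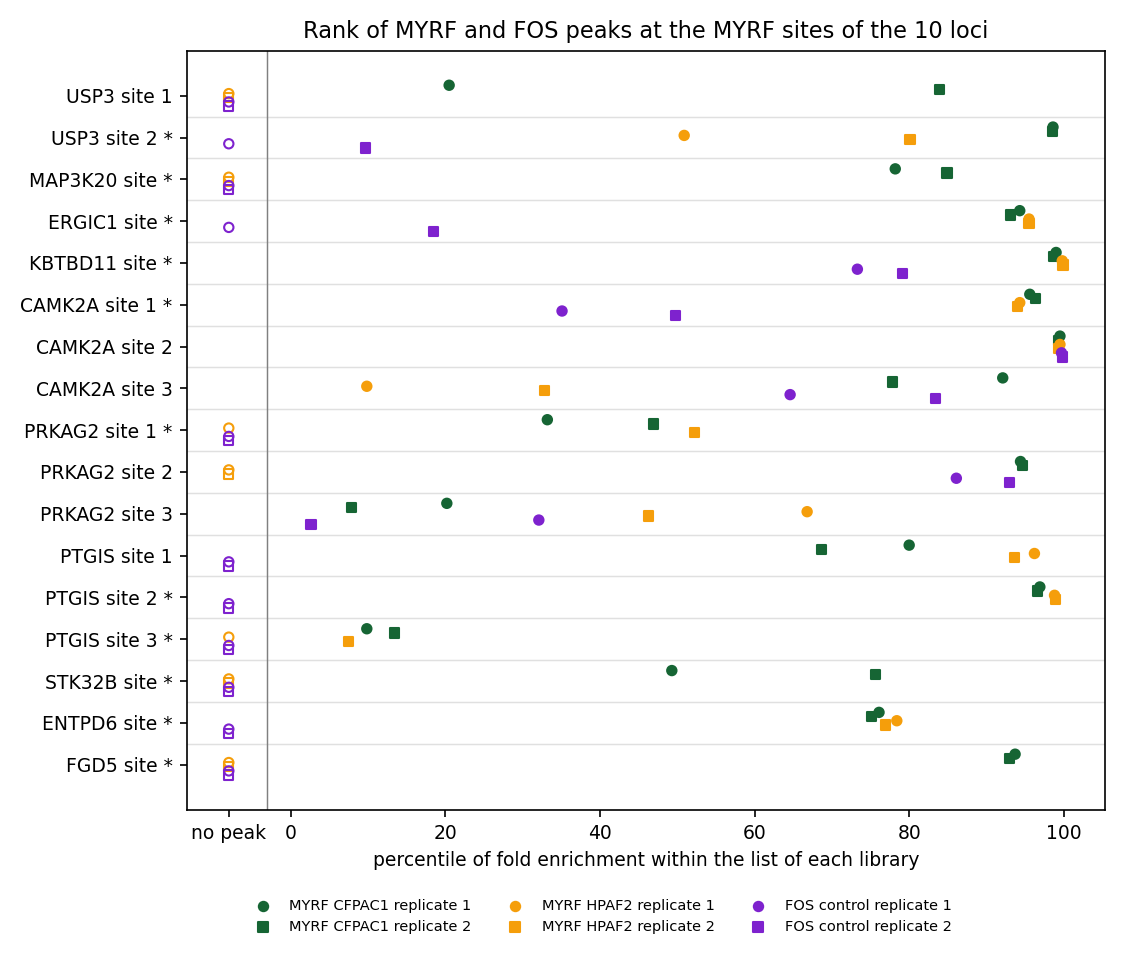
Percentile of the authors' fold enrichment within the list of each library (x axis) for MYRF in CFPAC1, MYRF in HPAF2 and FOS in the control clone at the 17 sites (rows), with open symbols at the left where a library has no peak and asterisks at the 11 much shorter sites. CFPAC1 MYRF points spread between percentiles 7.83 and 99.5, and MYRF in HPAF2 and FOS are missing at several of the marked sites.

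Within 5 kb of a MYRF summit, covered length was lower in both MYRFKO libraries than in both control libraries at all 10 loci. These stretches hold the bases on which the genes were picked. No share over all loci stands beside this count, so nothing is read from it. Over whole loci, covered length was lower in both MYRFKO libraries at 7 of the 10, against 33.4% of all loci with a MYRF site. Whole loci include the bases on which the genes were picked, so nothing is read from that count. In the rest of the loci the 10 genes differed among themselves. The ratio of MYRFKO to control there ran between 0.275 at STK32B and 2.06 at CAMK2A, with a median of 0.929, against 0.94 over 3287 loci of genes with a MYRF site. Values lower in both MYRFKO libraries were found at 3 loci, those of STK32B, PRKAG2 and FGD5, against 30.4% of all loci with a MYRF site. Values higher in both were found at 2, those of CAMK2A and ENTPD6, against 7.68% of all. Leaving out bases within 10 kb instead of 5 kb gave a median of 1.01, and without control replicate 1 it was 1.02, so the median has no settled direction.

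**Figure D5:**
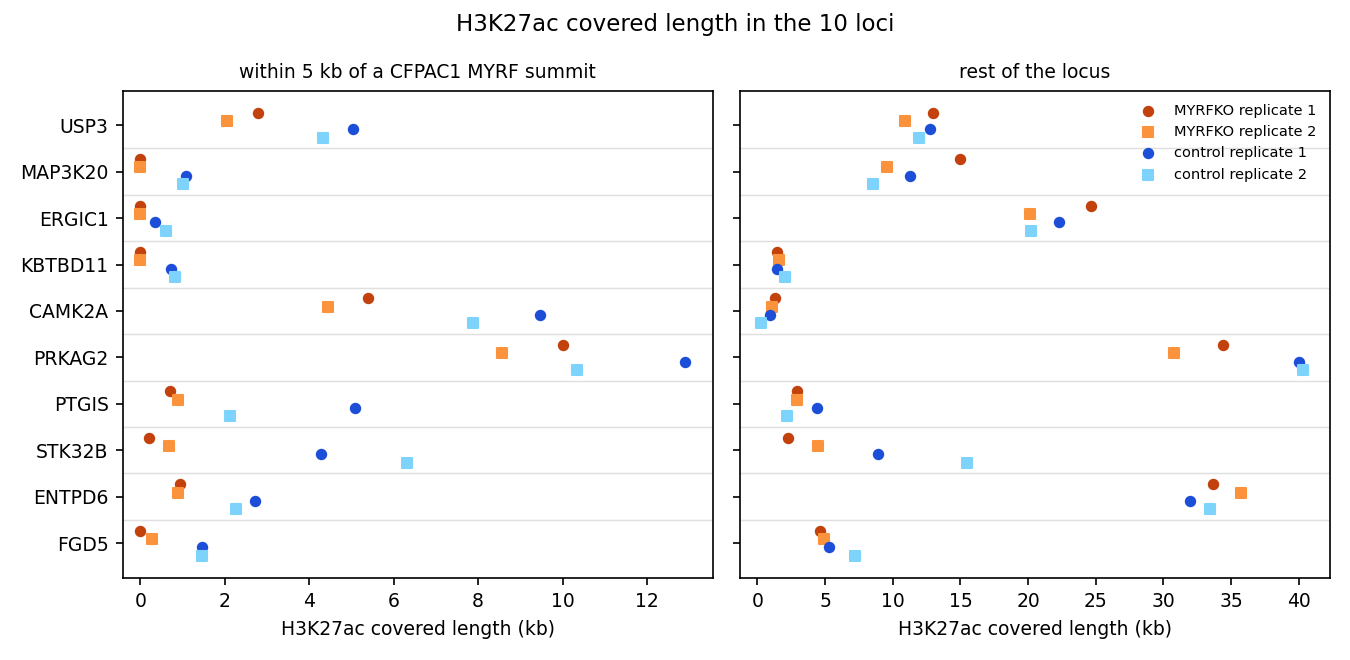
H3K27ac covered length in kb (x axes) within 5 kb of a CFPAC1 MYRF summit (left) and in the rest of the locus (right) for the 10 genes, with 1 point per library. MYRFKO points lie left of control points at every gene on the left, over bases on which the genes were picked. On the right they do so at STK32B, PRKAG2 and FGD5.

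Merging the H3K27ac peaks of the 4 libraries gave 241 regions in the 10 loci. Of 120 regions present in both control libraries, 13 had no peak in either MYRFKO library, or 10.8% against 6.87% over the genome. Of these 13, 8 lay within 2 kb of a MYRF summit, over or beside bases on which the genes were picked. Nothing is read from that share. Of 93 present in both MYRFKO libraries, 4 were absent from both control libraries, or 4.3% against 3.7% over the genome. A further 84 of the 241 were present in all 4 libraries, a class that held 40.2% of regions over the genome. Of the 13 lost regions, 5 held a MYRF site, those of MAP3K20, ERGIC1, KBTBD11, CAMK2A and PRKAG2. Regions were placed by the distance of their midpoint from the nearest MYRF summit. Within 2 kb 8 of 22 were lost, or 36.4% against 3.32% of all such regions, over bases on which the genes were picked. At 2 to 10 kb 0 of 17 were lost, against 8.83% of all. At 10 to 50 kb 4 of 41 were lost, or 9.76% against 8.05%, and farther away 1 of 40, or 2.5% against 6.69%. These counts rest on both libraries of each clone. Without MYRFKO replicate 1 or 2 the lost regions numbered 24 and 27 and the gained 20 and 29, and without control replicate 1 or 2 the lost numbered 51 and 54 and the gained 5 and 8.

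FOS sites of the 10 loci that did not overlap a MYRF site numbered 50. H3K27ac was much shorter at 5 of them, or 10.0% against 4.03% of the 24428 such sites of the whole list, and the median ratio was 0.976 against 0.974. STK32B held 3 of the 5, PTGIS 1 and ENTPD6 1. The last 2 lay beside their MYRF sites, in windows that overlap those on which the genes were picked. The higher share thus rests on 1 locus and on picked bases, and nothing is read from it. H3K27ac was lower in both MYRFKO libraries at 12 of the 50, against 16.5% of all such sites. These 12 include the 5 much shorter sites, so nothing is read from that share either. H3K27ac was higher in both at 6 of the 50, against 7.47% of all. Among the 6 was chr7:151796186-151796931 in PRKAG2, with 1413 and 1340 bp in MYRFKO libraries and 0 and 783 bp in control libraries.

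Family members and partners of the 10 genes were examined in the same way, from a list of 55 genes. CFPAC1 MYRF sites were found in the loci of 13 of them, or 23.6% against 16.6% of all protein-coding genes. None of their 21 sites was much shorter in MYRFKO cells, against 3.22% of all CFPAC1 MYRF sites. With so few sites, that count does not set the relatives apart from other genes. The strongest were in the loci of STK11, PTGES and MAP3K9. In that of STK11, the kinase upstream of AMP-activated protein kinase, MYRF fold was 27.7 and 24.0. That site lay nearer to SBNO2, at 9577 bp from its end. MYRF fold was 14.0 and 19.3 at PTGES, a prostaglandin E synthase, and 14.1 and 16.3 at MAP3K9, a mixed-lineage kinase. At the STK11 site H3K27ac covered 1756 and 1770 bp in MYRFKO libraries and 1693 and 1719 bp in control libraries. At the PTGES site it covered 1287 and 1095 bp in MYRFKO libraries and 1384 and 727 bp in control libraries. At the MAP3K9 site it covered 1837 and 1764 bp in MYRFKO libraries and 1948 and 1732 bp in control libraries. The groups overlap at PTGES and MAP3K9, while at STK11 both MYRFKO values were the higher.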

How the data were processed

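MYRF, FOS and H3K27ac ChIP-seq peak lists of 10 libraries were used, 2 in each of 5 groups named by their labels, and an HPAF2 input sample was not analysed here. Fixation lasted 10 min in 1% formaldehyde, and 10 µg of antibody went into every precipitation, per the labels' protocols. The tools named in the submitters' processing notes are MACS2 2.1.0.20150731, SAMtools, Bowtie2 2.2.6 and Trimmomatic 0.38, and the build is GRCh38 (hg38), while the control used for peak calling is not given in the sources used here. The deposited lists give each peak's fold enrichment, a ratio over the local background, which is the authors' own value and was used only to describe and rank peaks within a list. They also give the authors' −log10 p and −log10 q, with the lowest −log10 q between 1.3 and 1.33 in each list. Without read counts, depth is unknown and no count model could be fitted. Peaks were called per library, so replicates were compared by presence and covered length, and a sum over separately called peaks moves with how much each library called.

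MYRF peaks of both CFPAC1 replicates overlapping by at least 1 bp were merged into sites, with the replicate 1 summit. Coordinates count from 1. Gene spans came from the RefSeq gene table and starts from the RefSeq promoter table of GRCh38.p14, and exons were not analysed here. A gene with several listed starts was measured from the nearest. No start was used for ERGIC1, KBTBD11 and PTGIS, which are described by span ends. Percentiles rank fold enrichment within a list. Wilson 95% intervals cover counting over sites, which are not replicates of a knockout, and no test was made. Replicate lists shared 0 peaks of equal position and fold, so none was a copy. Computation used matplotlib 3.10.9, scipy 1.17.1, pandas 2.3.3 and numpy 2.4.6 under Python 3.11.15, and coverage and overlap were tested on 500 simulated windows with 0 mismatches. The genes and lists were chosen with earlier results of these data known. All 10 genes are named with each CFPAC1 MYRF site of their loci. Other genes are named as the nearest to a described element, as listed relatives with a MYRF site, as cell type markers, or as the nearest to the 5 sites elsewhere of lowest MYRFKO to control ratio. Alternatives covered the window, the peak threshold, the locus, the overlap rule, region merging and leaving out each library.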

Additional observations from a re-analysis of the deposited data

How the results depend on the processing

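Over 9 results and 53 alternatives, values moved at 16. The median ratio in the rest of the loci, 0.929, lies so near to 1 that some settings put it on the other side. With a gene span plus 10 kb the loci held 10 MYRF sites in place of 17. With peaks of −log10 q of at least 10, the share of much shorter sites was 23.5%, the median ratio at sites 0.134, and 8 regions were lost, 2 gained and 44 kept. Joining peaks up to 500 bp apart left 2 gained regions, and leaving out 10 kb around summits gave a median ratio of 1.01 in the rest of the loci. Leaving out single H3K27ac libraries gave 24 to 54 lost regions, 5 to 29 gained, 87 to 101 kept, much shorter sites at 64.7 to 76.5%, median ratios at sites of 0.161 to 0.252 and in the rest of the loci of 0.897 to 1.02. With 1 library of a clone, presence in that library alone decides a region, so more regions count as lost or gained. Leaving out a MYRF, FOS or HPAF2 library gave 18 to 19 sites, FOS at 35.3 to 47.1% and HPAF2 MYRF at 58.8 to 70.6%. No paired analysis was possible because no result here comes from a test, and the labels do not tie libraries of the same number to a shared culture or day. A peak that just passes the caller in 1 library and just misses in another reads as present and absent, and unknown depth limits every such call.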

Other observations

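Outside the 10 loci, 2202 CFPAC1 MYRF sites had a mean of at least 1000 bp of H3K27ac in control cells within 2000 bp of the summit, and 40 of them were much shorter in MYRFKO cells. The ratio was 0.0 at 3 sites. The first, chr11:123587901-123588753 near GRAMD1B, which encodes a sterol carrier, had 0 and 0 bp in MYRFKO libraries and 728 and 1292 bp in control libraries. The second, chrX:45329235-45329590 nearest to DIPK2B, had 0 and 0 bp in MYRFKO libraries and 1290 and 997 bp in control libraries. The third, chr1:64039360-64039951 nearest to ROR1, which encodes a receptor tyrosine kinase-like protein, had 0 and 0 bp in MYRFKO libraries and 1459 and 894 bp in control libraries. These 3 sites were bound by MYRF in HPAF2 and not by FOS. Next came sites nearest to B3GALNT2, a glycosyltransferase gene, with a ratio of 0.0885, and RAB6C, with 0.107. These gene ends were distant, at 39516 bp for GRAMD1B, 128523 bp for DIPK2B and 141738 bp for ROR1. The distance was 35485 bp for B3GALNT2 and 786525 bp for RAB6C, and no link to these genes was tested.

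HPAF2 MYRF also occupied places in the 10 loci where CFPAC1 had no MYRF site. In the KBTBD11 locus, 2 of them lay inside the gene. One at chr8:1991816-1992019 had fold 2.83 in HPAF2 replicate 1, and in CFPAC1 H3K27ac covered 0 and 0 bp around it in MYRFKO libraries and 0 and 200 bp in control libraries. Another at chr8:2000837-2001118 had fold 4.35 in HPAF2 replicate 1, and in CFPAC1 H3K27ac covered 801 and 389 bp around it in MYRFKO libraries and 997 and 1138 bp in control libraries. In the MAP3K20 locus, one at chr2:173049421-173049667 inside RAPGEF4, an exchange factor gene, had fold 4.34 in HPAF2 replicate 1. Around it H3K27ac covered 1941 and 1746 bp in MYRFKO libraries and 1853 and 1763 bp in control libraries, which overlap. In the PRKAG2 locus, single-replicate MYRF peaks of both lines met at chr7:151754189-151754568, where H3K27ac covered 1530 and 1550 bp in MYRFKO libraries and 1621 and 1539 bp in control libraries.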
